A study of Mus musculus with 2 samples.

Results

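The genes described here encode the matrix metalloproteinases (MMPs), the ADAM and ADAMTS proteases and the tissue inhibitors of metalloproteinases (TIMPs), measured in single cells of the mouse incisor. They were chosen by symbol alone, as Mmp, Adam or Adamts followed by a number or Timp followed by 1 digit. The rule used no measured value, but it was set with earlier results of these data known. The rule gave 77 genes of the 31053 in the deposited matrix, of which 21 are Mmp, 33 Adam, 19 Adamts and 4 Timp genes. In the cells kept, 62 of the 77 had at least 1 UMI (unique molecular identifier, a count of 1 captured RNA molecule) and 15 had 0. The 41 genes with at least 30 UMIs (10 Mmp, 12 Adam, 16 Adamts and 3 Timp genes) are called measured below, and for a comparison the 30 UMIs had to lie in its 2 sides together. A gene can pass that minimum through the side where it is high, so counts over measured genes are a description of those genes and not of all 77.

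The cells came from incisors of untreated C57BL/6 mice at 4 weeks of age, digested for 30 min in collagenase type I at 2 mg/ml. The label calls the tissue dental mesenchyme, although the dental epithelium was prepared together with the pulp. The 2 sample titles are lanes of 1 matrix that gives no lane for a barcode, so all cells are 1 sample, the barcodes shared by lanes cannot be counted and the number of animals is not known here. No comparison below has a replicate check, no p-value is given, and every interval is a 95% interval that covers counting error only.

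After filtering, 4538 cells with a median of 5790.5 UMIs remained, and the 77 genes took 34842 of their 34670561 UMIs (0.1005%). Cells were clustered without the 77 genes, and a cluster took a class name only where its markers bore the name, each name standing for "-like". The classes were mesenchymal (2197 cells), epithelial (769), macrophage (431), B cell (206), neutrophil (188), monocyte (159), erythroid (100), cytotoxic lymphocyte (76), T cell (75), endothelial (74) and dendritic (26). Clusters of 199 and 38 cells are called by their leading genes, H2-Eb1 and Hs3st1. The 7 epithelial markers summed to 2564 CPM (UMIs per 1000000 UMIs of a class) in epithelial cells and 37.5 CPM in mesenchymal cells. The 8 mesenchymal markers summed to 160.6 CPM in epithelial cells and 14120 CPM in mesenchymal cells, so both names held.

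MMPs are zinc endopeptidases that are made as inactive proenzymes and cleave collagens, other matrix proteins and cell surface proteins. ADAMs are membrane proteases that release the outer part of ligands and receptors, ADAMTS proteases are secreted and process procollagens and proteoglycans, and TIMPs bind to the active site of these enzymes. In a growing tooth the collagenous dentin matrix is laid down by odontoblasts of the mesenchyme, the epithelium makes enamel, and the surrounding follicle and bone are remodelled as the tooth erupts.

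With gaps of at most 200 kb between neighbours, 8 of the 77 genes lay in 1 stretch of chromosome 9 of build mm10, from 7272514 to 7699585. Their RefSeq promoter windows (GRCm38.p6, 250 bases before the start to 50 after it) are shown for 4 genes of this stretch that differed in their levels, with the AP-1 motif TGANTCA and the RUNX motif TGTGGTT, which reads AACCACA on the other strand, in capitals.
Mmp13, chr9:7272264-7272563, plus strand: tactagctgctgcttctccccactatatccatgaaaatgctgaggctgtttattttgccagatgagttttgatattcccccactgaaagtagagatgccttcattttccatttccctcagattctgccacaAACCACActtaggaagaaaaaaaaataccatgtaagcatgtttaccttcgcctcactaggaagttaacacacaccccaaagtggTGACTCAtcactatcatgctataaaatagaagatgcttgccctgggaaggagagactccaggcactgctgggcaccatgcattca
Mmp12, chr9:7347124-7347423, plus strand: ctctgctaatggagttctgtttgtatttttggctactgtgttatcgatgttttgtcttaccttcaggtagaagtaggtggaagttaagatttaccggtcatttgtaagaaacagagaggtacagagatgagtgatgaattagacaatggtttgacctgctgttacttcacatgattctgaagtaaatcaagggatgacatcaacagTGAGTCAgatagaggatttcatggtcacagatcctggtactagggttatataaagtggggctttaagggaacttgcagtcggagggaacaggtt
Mmp3, chr9:7445572-7445871, plus strand: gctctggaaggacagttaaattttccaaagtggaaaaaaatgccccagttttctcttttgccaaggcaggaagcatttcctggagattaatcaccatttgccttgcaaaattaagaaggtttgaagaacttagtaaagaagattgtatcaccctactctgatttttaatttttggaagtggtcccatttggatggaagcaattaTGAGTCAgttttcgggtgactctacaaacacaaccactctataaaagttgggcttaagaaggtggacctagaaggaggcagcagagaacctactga
Mmp8, chr9:7558179-7558478, plus strand: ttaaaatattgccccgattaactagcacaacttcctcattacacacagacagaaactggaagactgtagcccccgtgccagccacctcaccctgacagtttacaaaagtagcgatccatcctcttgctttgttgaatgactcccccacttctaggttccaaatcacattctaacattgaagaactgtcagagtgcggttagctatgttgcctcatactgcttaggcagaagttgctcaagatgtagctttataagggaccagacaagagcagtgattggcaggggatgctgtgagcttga
The Mmp12 window is 1 of 2 in RefSeq for that gene, the one with a match. The capitals mark matches of letters, which are a description and neither a site nor a cause. AP-1 factors such as Fos and Jun bind the AP-1 motif, and Runx2, a regulator of bone and tooth cells, binds the RUNX motif. Positions count from the start of the transcript to the first base of the match, on the strand of the gene. The AP-1 motif, searched on both strands in the 10 windows of the 8 genes, was found for 6 genes, at -35 in Mmp13, -44 in Mmp12, -46 in Mmp3, -63 in Mmp10, -93 in Mmp1b and -63 in Mmp7. It was in 7.81% of all 32851 RefSeq windows of this length. The RUNX motif was in the windows of Mmp13 at -119, Mmp27 at -62 and Mmp7 at -46, against 5.27% of all windows. TATAAA, or TTTATA on the other strand, was in windows of 7 of the 8 genes, against 13.6% of all windows, and no match of the 3 motifs overlapped another in these windows. Of the 41 measured genes 25 matched a RefSeq window, and of these 2 held the AP-1 motif, Mmp13 and, at -131, Adam19, a protease that sheds neuregulins.

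The genes of the chromosome 9 stretch had unlike levels. Mmp8, the collagenase of neutrophil granules, had 618 UMIs in the kept cells and Mmp13, collagenase-3 of cartilage and bone, had 454. Mmp12, the macrophage elastase, had 23 UMIs, of which 12 were in the H2-Eb1 cluster (16.7 CPM, 8.65 to 29.2) and 10 in macrophages (4.26 CPM, 2.04 to 7.84). The other 5 had 2 UMIs (Mmp27), 1 UMI (Mmp10) or 0 (Mmp1b, Mmp3 and Mmp7), so that the 6 genes with an AP-1 match ran between 454 and 0 UMIs.

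Each family had its own order of cell classes. Summed over its genes, the MMP family was at 2135 CPM in neutrophils and 518 CPM in mesenchymal cells, and at 182 CPM or less in the other named classes plotted. Of the UMIs behind these sums, uncorrected for transcript length, Mmp9 made up 61.6% in neutrophils and Mmp2 54.7% in mesenchymal cells. The ADAM sum was 514 CPM in endothelial cells, 422 CPM in neutrophils, 386 CPM in macrophages, 334 CPM in monocytes, 166 CPM in epithelial cells and 182 CPM in mesenchymal cells. The ADAMTS sum was 424 CPM in endothelial cells and 393 CPM in mesenchymal cells, whose intervals overlapped, and 60.2 CPM in epithelial cells. The TIMP sum was 804 CPM in endothelial cells, 319 CPM in mesenchymal cells, 285 CPM in macrophages and 11.1 CPM in B cells. Timp3 made up 74.6% of the endothelial TIMP UMIs and Timp2 97.6% of those of macrophages.

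**Figure D1:**
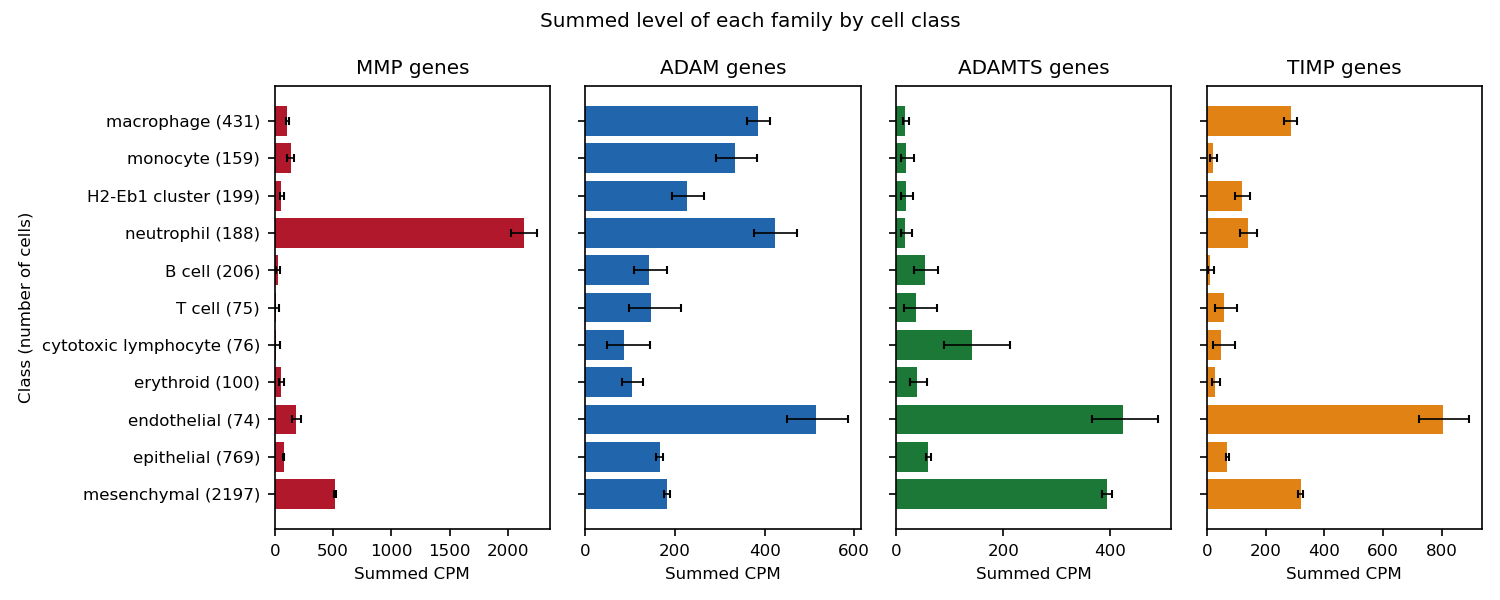
Summed level of the MMP, ADAM, ADAMTS and TIMP genes (CPM, x axis, 1 panel per family) in 11 cell classes with their numbers of cells. Bars start at 0 and whiskers are exact 95% Poisson intervals of the summed UMIs, so they cover counting error only. The MMP bar is longest in neutrophils (2135 CPM), and the ADAM, ADAMTS and TIMP bars are longest in endothelial cells.

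Of the 41 measured genes, 16 were highest in mesenchymal cells, 10 in endothelial cells, 5 in macrophages, 3 each in neutrophils and B cells, 2 in monocytes and 1 each in cytotoxic lymphocytes and erythroid cells. The dendritic class (26 cells) and the Hs3st1 cluster (38 cells) were not ranked. Some places rest on few UMIs or small gaps. Adamts6 had 6.65 CPM in B cells, from 3 UMIs, and 6.46 CPM in monocytes. Adam19 had 31.0 CPM in B cells and 29.8 CPM in macrophages. Adamts5 had 24.7 CPM in endothelial cells, 9.20 CPM without 1 cell, and 22.9 CPM in mesenchymal cells. The class was the same for 37 of 41 genes at a clustering resolution of 0.5 and for 40 of 41 at 2.0. Droplets with 1 to 20 UMIs, a measure of RNA free of cells, held Mmp2 at 102 CPM, Timp2 at 131 CPM and Mmp9 at 44.1 CPM. The part of such RNA in the low levels below was not tested. No measured gene shared exons with another gene on its own strand, and 7 (Adamts7, Adamts9, Adam8, Adam15, Adam17, Adam19 and Mmp19) overlapped exons of a gene on the other strand.

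**Figure D2:**
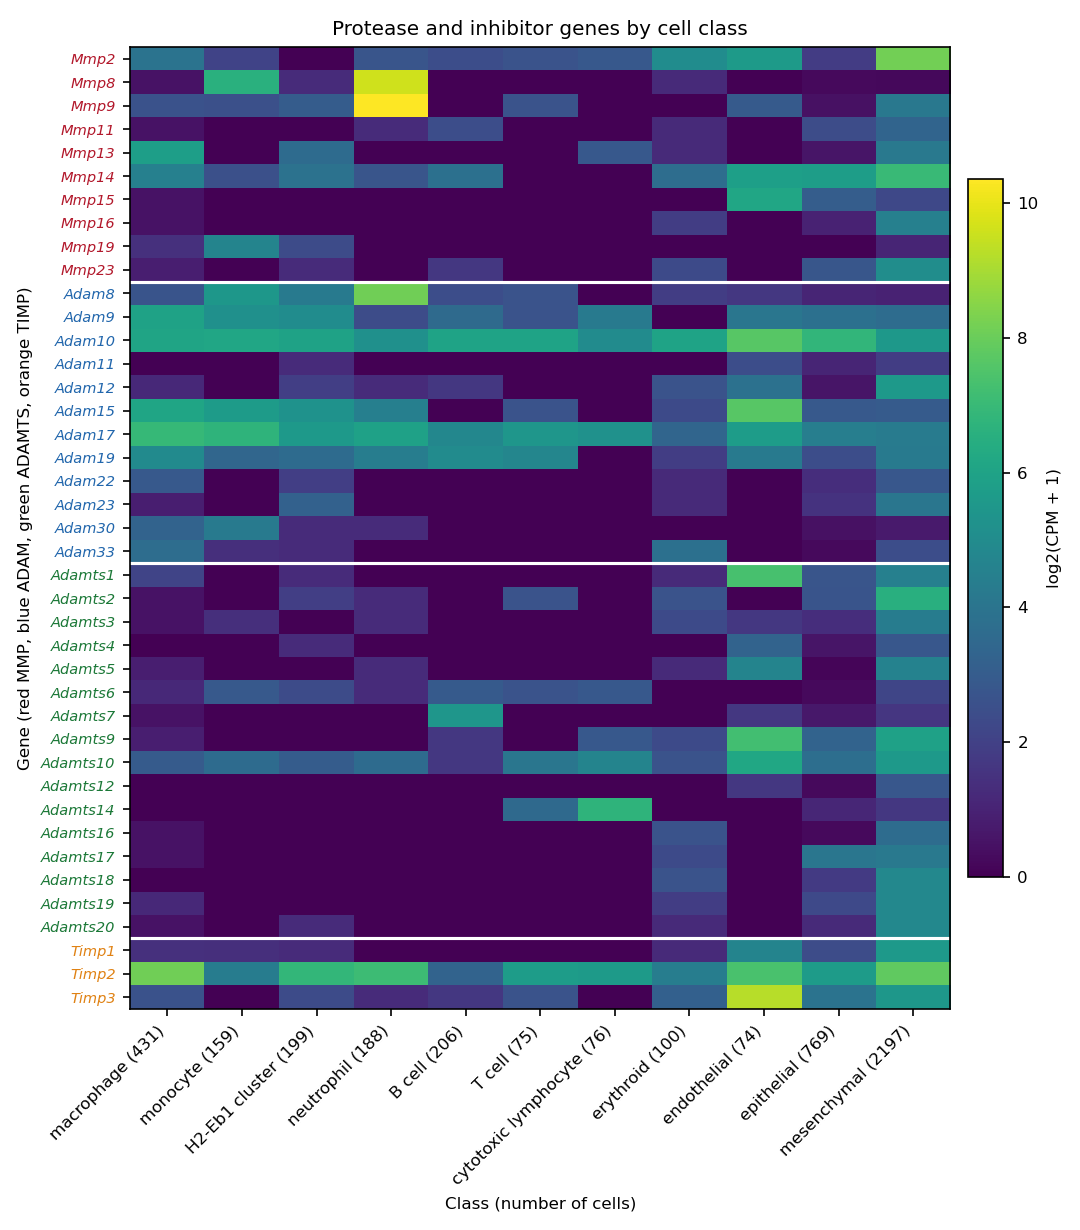
Level of each measured gene, as log2(CPM + 1) from dark (0) to yellow, in 11 cell classes with their numbers of cells. Red, blue, green and orange names are MMP, ADAM, ADAMTS and TIMP genes. Mmp8 and Mmp9 are bright in neutrophils, Timp3 in endothelial cells and Timp2 in both macrophages and mesenchymal cells.

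Epithelial cells held less of most of these transcripts than mesenchymal cells, and Adam10 was the only measured gene past 2-fold in the other direction. Of 37 measured genes 1 was at least 2-fold higher in epithelial cells (2.7%), while 10.5% of the 12920 genes tested were. In the other direction 30 were at least 2-fold lower (81.1%), while 20% of all genes tested were. The median log2 ratio was -2.75 over the 37 genes and -0.29 over all genes tested. By family 7 of 8 MMP, 6 of 10 ADAM, 14 of 16 ADAMTS and 3 of 3 TIMP genes were at least 2-fold lower. With the most abundant genes (each over 1% of the UMIs of either side) left out of the totals the median of all genes tested moved to 0.0088, and 28 of the 37 genes were at least 2-fold lower and 2 higher, the second being Mmp15.

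Among the gelatinases, Mmp2, which cleaves denatured and basement membrane collagen, had 26 UMIs (2.56 CPM) in epithelial cells and 5093 UMIs (283 CPM) in mesenchymal cells, a log2 ratio of -6.79 (-7.40 to -6.24). In mm10 the gene lies at chr8:92827291-92853420 on the plus strand. Of all Mmp2 UMIs 97.8% lay in mesenchymal cells. Thinned to 2000 UMIs per cell, 0.422% of epithelial cells and 41.5% (39.3 to 43.6) of mesenchymal cells held an Mmp2 UMI, against 0 of 68 B cells, which should lack it and for which 0 allows up to 5.28%. Before thinning these shares were 2.86%, 76.2% and 0.971%, at median depths of 9304, 7009 and 1694 UMIs, and 164 mesenchymal and 138 B cells were too shallow to be thinned. Mmp9, the other gelatinase, had 0.394 CPM in epithelial cells, against 16.7 CPM in mesenchymal cells (-5.40). With doublet calls kept the ratios were -5.60 for Mmp2 and -2.72 for Mmp9.

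The membrane-type enzymes, which are anchored in the plasma membrane and of which Mmp14 activates proMMP2, were split. Mmp14 had 53.5 CPM in epithelial cells, against 131 CPM in mesenchymal cells (log2 ratio -1.29, -1.42 to -1.15, and -0.99 with the most abundant genes left out of the totals), and it made up 70.1% of the epithelial MMP UMIs. Mmp16 was lower in epithelial cells by more (-4.45). Mmp15 went the other way, with 7.29 CPM in epithelial cells, against 3.73 CPM in mesenchymal cells (0.97), just inside the 2-fold limit. The collagenase Mmp13 had 0.493 CPM in epithelial cells, against 17.3 CPM in mesenchymal cells (-5.13), and Mmp23, an enzyme held in the membrane by its amino-terminal end, had 5.91 CPM in epithelial cells, against 33.3 CPM in mesenchymal cells.

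Adam10, the protease that cleaves Notch receptors after ligand binding, had 1148 UMIs (113 CPM) in epithelial cells and 813 UMIs (45.2 CPM) in mesenchymal cells, a log2 ratio of 1.32 (1.19 to 1.45). It made up 68.3% of the epithelial ADAM UMIs. Thinned to 2000 UMIs, 19.0% of epithelial and 8.90% of mesenchymal cells held an Adam10 UMI, and unthinned 59.3% and 27.8% did. Adam10 was found in all 11 classes plotted, from 30.8 CPM in cytotoxic lymphocytes to 202 CPM in endothelial cells. Adam17, the TNF-releasing enzyme and nearest relative of Adam10, had 20.8 CPM in epithelial cells, against 18.8 CPM in mesenchymal cells, a ratio inside 2-fold. Adam12, a meltrin first described in muscle, had 0.493 CPM in epithelial cells, against 48.3 CPM in mesenchymal cells (-6.61, -8.24 to -5.39).

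The procollagen N-proteinase Adamts2, which trims type I procollagen, had 5.52 CPM in epithelial cells, against 91.2 CPM in mesenchymal cells (-4.05, -4.46 to -3.66). The aggrecanase Adamts5 had 1 UMI in epithelial and 412 UMIs in mesenchymal cells (-7.86), with the widest interval among the 37 measured genes (-13.17 to -5.38). Of the 16 measured ADAMTS genes only Adamts14 and Adamts17 stayed inside 2-fold. All 3 measured inhibitors were lower in epithelial cells, with log2 ratios of -3.49 for Timp1, -2.16 (-2.29 to -2.03) for Timp2 and -1.58 for Timp3. Timp2, which both inhibits MMPs and helps Mmp14 to activate proMMP2, had 51.0 CPM in epithelial cells, against 228 CPM in mesenchymal cells.

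Summed by family, the epithelial to mesenchymal log2 ratio was -2.76 (-2.87 to -2.66) for MMPs, -2.71 (-2.83 to -2.59) for ADAMTS genes and -2.19 (-2.31 to -2.08) for TIMPs. The ADAM sum stood at -0.14 (-0.22 to -0.05), turned to 0.14 with the most abundant genes left out of the totals and to -1.38 without Adam10.

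**Figure D3:**
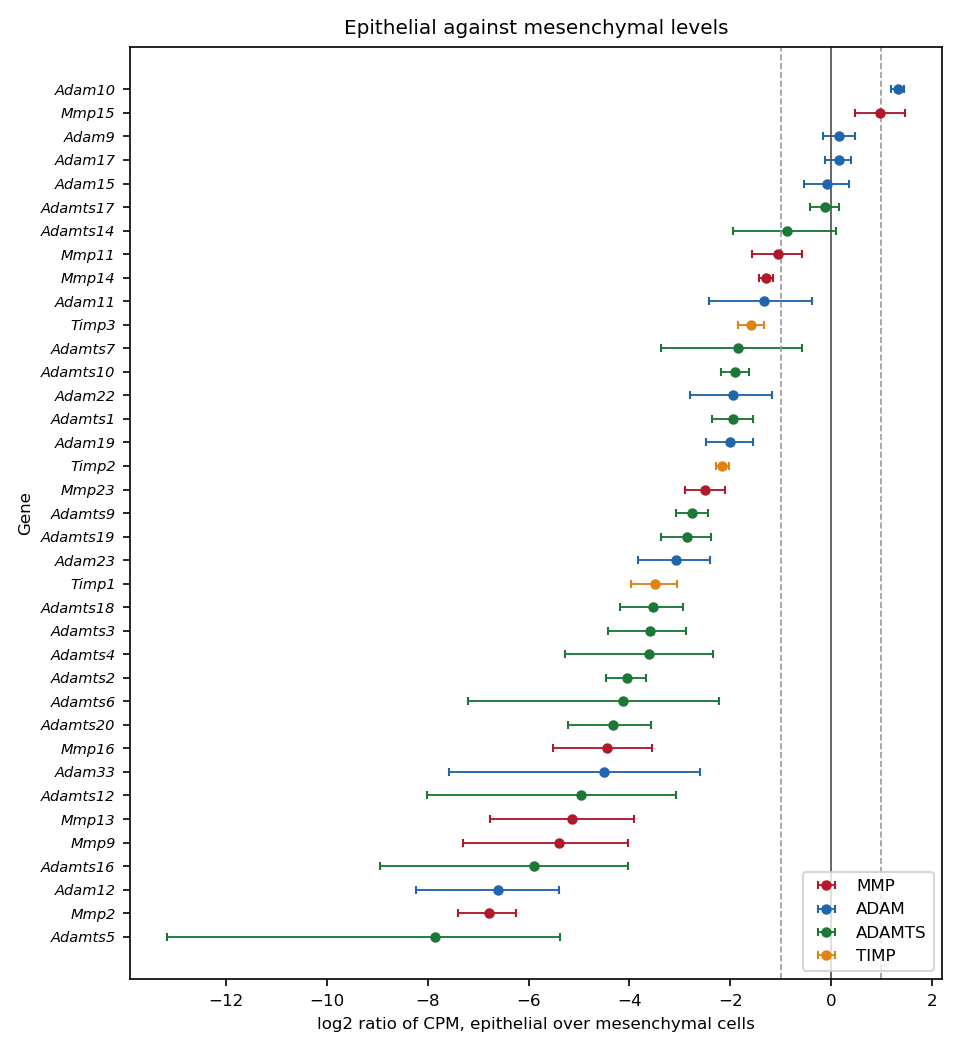
The log2 ratio of CPM, epithelial over mesenchymal cells (x axis), for the 37 measured genes, with exact 95% intervals from the UMIs and colours by family. Dashed lines mark 2-fold. Only Adam10 (1.32) lies right of the upper line, and Mmp2 (-6.79), Adam12 (-6.61) and Adamts5 (-7.86) lie farthest left.

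Neutrophils carried 3 of these genes at levels far above all other cells. Mmp9, the gelatinase of their tertiary granules, had 1315 CPM in neutrophils, against 9.66 CPM in all other cells (log2 ratio 7.09, 6.91 to 7.28). Mmp8 had 788 CPM in neutrophils, against 1.97 CPM in all other cells (8.64, 8.27 to 9.03). Adam8, a membrane protease of leukocytes, had 276 CPM in neutrophils, against 2.68 CPM in all other cells (6.69, 6.32 to 7.06). Adam17 was also just past 2-fold (1.02, 0.54 to 1.47), and at 0.18 in cells with at least 1000 genes, where Mmp9 was at 5.80, Mmp8 at 7.47 and Adam8 at 5.15. Adamts2 (-5.13), Mmp2 (-4.74), Timp3 (-4.65) and Adam12 (-4.19) were lowest. In all 4 of the 41 measured genes were at least 2-fold higher in neutrophils, against 9.29% of the 13999 genes tested, and 21 at least 2-fold lower, against 46.2%. Neutrophil granule genes take much of this class's total. With the most abundant genes left out of the totals the median of all genes tested moved to -0.092, against -0.84 with them, and the split became 6 higher and 16 lower.

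Neutrophils fell into a Retnlg cluster and a Camp cluster, led by genes of late and of earlier granule stages. Mmp9 had 2007 CPM (1850 to 2174) in the Retnlg cluster and 790 CPM (705 to 882) in the Camp cluster, Mmp8 had 1344 CPM in the Retnlg and 367 CPM in the Camp cluster, and Adam8 had 514 CPM in the Retnlg and 95.6 CPM in the Camp cluster. Timp2 also differed, with 246 CPM in the Retnlg and 55.3 CPM in the Camp cluster. These levels are shares of unlike totals, with a median of 2026 UMIs per cell in the Retnlg and 6266 in the Camp cluster. UMIs of these genes per cell were not compared. After thinning to 2000 UMIs 80.0% of neutrophils (71.7 to 86.8) held an Mmp9 UMI, unthinned 81.9%, and 0 of 68 thinned B cells did.

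Macrophages were high in ADAM sheddases and in 1 collagenase. Their log2 ratios over all other cells were 2.60 (2.32 to 2.88) for Adam15, a disintegrin that binds integrins, 2.43 (2.13 to 2.73) for Mmp13, 2.36 (2.16 to 2.56) for Adam17, 2.29 for Adam9 and 3.32 for Adam30, whose level was low (8.95 CPM). Mmp13 stood at 54.5 CPM in macrophages, against 10.1 CPM in all other cells, and Adam17 at 121 CPM, against 23.6 CPM. Timp2 was at 278 CPM in macrophages, against 152 CPM in all other cells, inside 2-fold. Adamts2 (-6.95), Adamts9 (-5.49), Mmp8 (-5.49) and Adamts20 (-5.22) were lowest. In all 7 of 41 measured genes were at least 2-fold higher, against 15.4% of all genes tested, and 26 at least 2-fold lower, against 29.1%. The 14 genes of a list for the response to tissue dissociation, among them Fos, Jun and Atf3, summed to 20070 CPM in macrophages, against 2055 CPM in epithelial cells and 1635 CPM in mesenchymal cells, and its part in these levels was not tested.

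Within macrophages, the cluster led by Il1a held Mmp13 at 136 CPM (97.6 to 184) and Adam17 at 192 CPM (146 to 249), and the cluster led by Ccl7 held them at 42.5 CPM (34.1 to 52.5) and 110 CPM (96.6 to 126). Mmp14 was likewise at 59.7 CPM in the Il1a and 16.1 CPM in the Ccl7 cluster. Timp2 went the other way, with 176 CPM in the Il1a and 293 CPM in the Ccl7 cluster, as did Adam15, with 29.8 CPM in the Il1a and 72.4 CPM in the Ccl7 cluster.

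Monocytes shared Mmp8 and Adam8 with neutrophils at lower levels, 95.3 CPM (2.54, 2.13 to 2.93) and 43.6 CPM (2.53, 1.90 to 3.11). With equal weight per cell these ratios were 1.13 and 1.26, and in cells with at least 1000 genes 4.70 and 4.11. They also held Mmp19, a soluble MMP, at 24.2 CPM (4.93, 3.92 to 5.90) and Adam30 at 17.8 CPM (3.96). Mmp2 (-5.56), Mmp14 (-4.18), Timp1 (-4.06) and Adamts2 with 0 UMIs (at most -3.37) were lowest. Timp2 was at -3.08, with 19.4 CPM in monocytes against 278 CPM in macrophages. In all 8 of 41 measured genes were at least 2-fold higher in monocytes, against 13.3% of all genes tested, and 21 lower, against 25.2%. The H2-Eb1 cluster, which carries MHC class II genes, raised the macrophage markers C1qa, C1qb, C1qc, Mrc1, Adgre1 and Csf1r. Of the dendritic list it raised only H2-DMb1 and Cd209a, and of the monocyte list only Ccr2. In the macrophage comparison it was among the other cells. This cluster had 4 genes at least 2-fold higher, against 11.2%, and 21 lower, against 29.1%. Of the 4, Adam15 (1.40, and 0.99 in cells with at least 1000 genes), Adam8 (1.18) and Adam9 (1.04) are membrane ADAMs, while the interval of Mmp19 reached below 0. With equal weight per cell Adam8 was at -1.09 and Adam9 at 0.93, and under the other alternatives Adam8 reached 2.91 and Adam9 went down to 0.74. Mmp2 had 0 UMIs there, at most -5.20.

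Among lymphocytes, 2 ADAMTS genes stood out. Adamts7, a protease that cleaves cartilage oligomeric matrix protein, had 42.1 CPM in B cells (4.97, 4.12 to 5.77), and all 19 UMIs were in the cluster led by Vpreb3, a gene of B cell precursors (84.8 CPM, 51.0 to 132), against 0 in the cluster led by Ms4a1, where the interval reached 16.2 CPM. These UMIs came from 17 cells. Adam19 was at 1.12 (0.24 to 1.88) in B cells, but at 0.59 in cells with at least 1000 genes and at -1.18 with at most 10% mitochondrial UMIs, while Mmp2 (-5.10), Timp2 (-4.20), Adamts9 (-4.03) and Timp3 (-4.01) were lowest. Adamts14, a procollagen N-proteinase related to Adamts2, had 105 CPM in cytotoxic lymphocytes (6.09, 5.21 to 6.90) from 17 UMIs in 14 of 76 cells, and 10.5 CPM in T cells. The B cell counts were 3 higher, against 13.8% of all genes tested, and 18 lower, against 23.4%, and in T cells 2 were higher, against 13.3%, and 9 lower, against 17.7%. In cytotoxic lymphocytes 2 were higher, against 14.0%, and 7 lower, against 15.5%. Of the 41 measured genes 25 had 0 UMIs in B cells, 27 in T cells and 31 in cytotoxic lymphocytes. The number was 23 in monocytes, 21 in neutrophils, 18 in endothelial cells and 14 in the H2-Eb1 cluster. At 0 UMIs the floor of 3 UMIs sets the ratio, so the numbers of lower genes depend on it. In cytotoxic lymphocytes Mmp9 with 0 UMIs was not called (at most -0.97), and Mmp13 with 1 UMI was called lower (-1.09, -6.4 to 1.39). Both genes counted as higher in T cells, and Adamts6 in B cells, cytotoxic lymphocytes and monocytes, had intervals that reached below 0.

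Endothelial cells were the class with the most Timp3, an inhibitor that stays bound to the matrix, at 599 CPM, against 27.9 CPM in all other cells (log2 ratio 4.42, 4.22 to 4.62). Mmp15 (4.07, 3.46 to 4.64), Adam15 (4.05, 3.71 to 4.38) and Adamts1, a versican-cleaving protease (3.62, 3.24 to 3.98), followed. Of the 73 Adamts1 UMIs 18 were in 1 cell, and the ratio was 3.26 without it. Adamts9, also a versicanase, was at 148 CPM (2.11), Adam10 at 202 CPM (1.57) and Adamts10, which binds fibrillin, at 71.8 CPM (1.30). Adamts2 with 0 UMIs (at most -2.89), Mmp9 (-2.43), Adamts3 (-2.25) and Adam8 (-1.88) were lowest, the intervals of Adamts3 and Adam8 reaching above 0 and their values inside 2-fold under an alternative (-0.89 and -0.58). In all 10 of 41 measured genes were at least 2-fold higher, against 16.8% of all genes tested, and 11 lower, against 15.2%. The 10 include Adamts4 and Adam11, whose intervals reached below 0, and Adamts5, of whose 11 UMIs 7 were in 1 cell and whose ratio was -0.41 without it.

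The mesenchymal cells were divided into 9 clusters, and the 1 led by Igf1 (383 cells) had the most genes at least 2-fold higher than the other mesenchymal cells, 21 against 0 to 7 in the other 8 clusters. Of 37 measured genes 21 were at least 2-fold higher in the Igf1 cluster than in the other mesenchymal cells (56.8%), against 15.3% of all genes tested, and 6 were lower, against 9.98%. The median log2 ratio was 1.52 over the 37 genes and 0.09 over all genes tested. All 7 genes of a dental follicle marker list had UMIs there, at a sum of 1661 CPM. Of these Ogn, Bmp3 and Smoc2 were raised over the median of the mesenchymal clusters, and Spock1, Aldh1a2, Sfrp4 and Aspn were not. The 8 perivascular markers summed to 535 CPM, and only Acta2 and Abcc9 of them were raised.

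Adamts16, whose substrates include fibronectin, had 210 UMIs (77.2 CPM) in the Igf1 cluster and 0 in the other mesenchymal cells, a log2 ratio of at least 8.62 against a floor of 3 UMIs. Mmp9 had 108 CPM in the Igf1 cluster and 0.393 CPM in the others (8.10, 6.96 to 9.56), a ratio of 6.76 with doublet calls kept. Adamts5 had 133 CPM in the Igf1 cluster and 3.28 CPM in the others (5.34), and Adamts9 had 333 CPM in the Igf1 cluster and 11.2 CPM in the others (4.89). Adamts5 and its neighbour Adamts1, which had 86.1 CPM in the Igf1 cluster and 10.2 CPM in the others (3.08), lie together on chromosome 16 between 85793827 and 85901828. Among MMPs, Mmp23 had 153 CPM in the Igf1 cluster and 11.9 CPM in the others (3.69), Mmp13 had 78.0 CPM in the Igf1 cluster and 6.49 CPM in the others (3.59, and 2.64 with doublet calls kept), and Mmp14 had 293 CPM in the Igf1 cluster and 102 CPM in the others (1.53). Of the 99 Mmp13 UMIs in the others, 85 were in 1 cell of the Lypd1 cluster, and the ratio without that cell was not taken. Timp2 had 894 CPM in the Igf1 cluster and 109 CPM in the others (3.03, 2.94 to 3.13), and Timp3 had 179 CPM in the Igf1 cluster and 19.5 CPM in the others (3.20).

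The 6 genes lower in the Igf1 cluster were 3 ADAM and 3 ADAMTS genes. Adamts19 (-5.48) and Adamts18 (-4.45) are ADAMTS proteases with few known substrates, Adam33 (-3.82) is a membrane ADAM, and Adam23 (-3.05) is an ADAM without protease activity that binds LGI proteins. Adam12 had 6.99 CPM in the Igf1 cluster and 55.7 CPM in the other mesenchymal cells (-2.99). Of the procollagen N-proteinases, Adamts3 was lower (-1.87) and Adamts2, with 254 CPM in the Igf1 cluster and 62.2 CPM in the others (2.03), was higher. By family 5 of 8 MMP, 5 of 10 ADAM, 9 of 16 ADAMTS and 2 of 3 TIMP genes were higher, and 0, 3, 3 and 0 were lower.

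**Figure D4:**
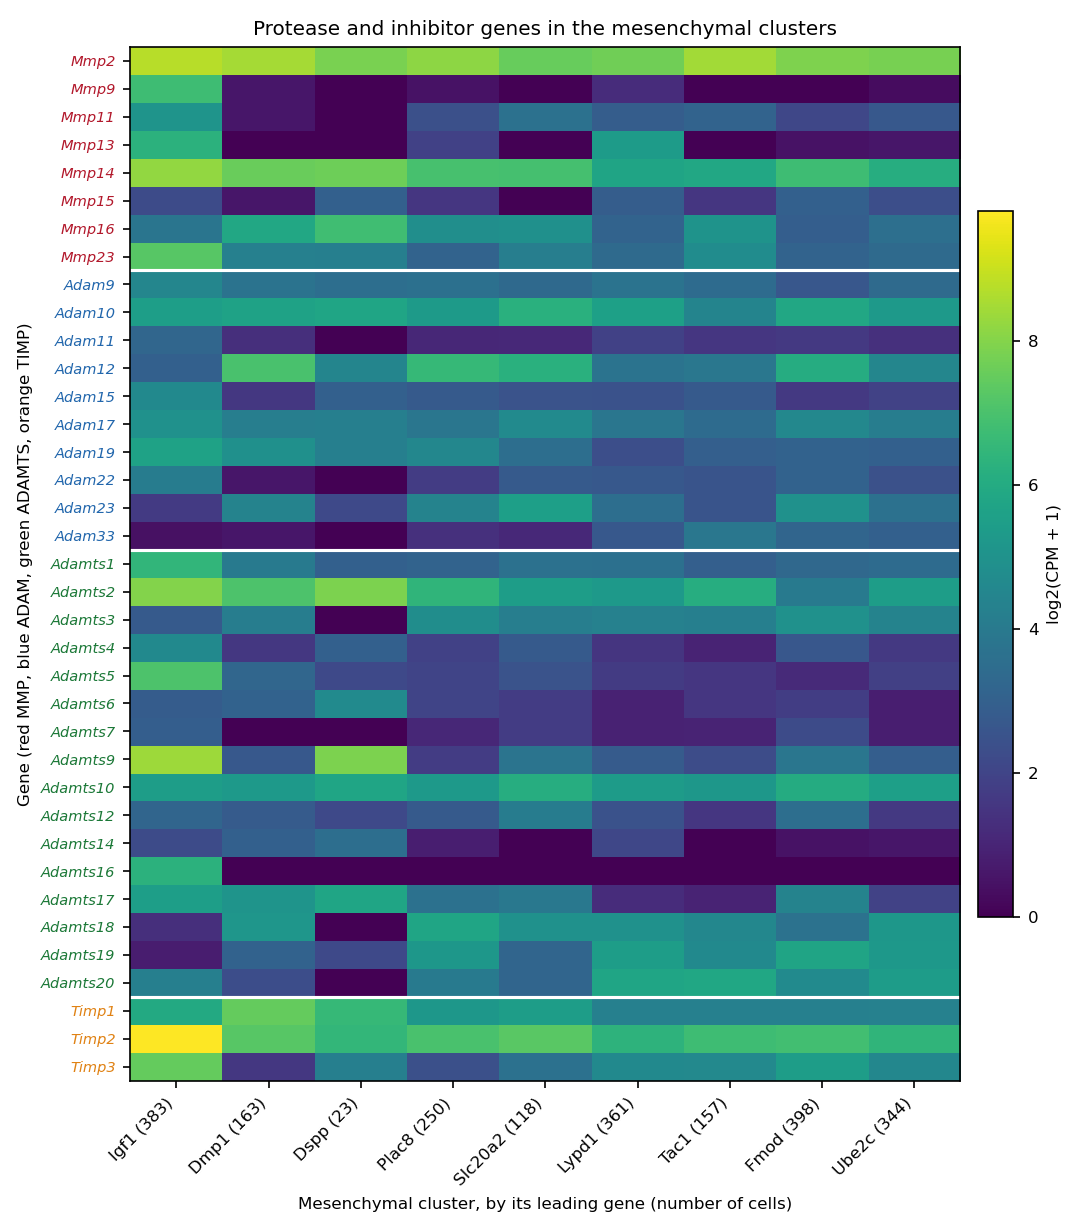
Level of each of the 37 genes measured in epithelial and mesenchymal cells, as log2(CPM + 1), in the 9 mesenchymal clusters named by leading gene, with numbers of cells. Red, blue, green and orange names are MMP, ADAM, ADAMTS and TIMP genes. Timp2, Adamts9, Mmp14, Mmp9 and Adamts16 are brightest in the Igf1 column, and Timp1 and Adam12 in the Dmp1 column.

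At a clustering resolution of 1.0 the Igf1 cluster separated into clusters led by Sfrp2 (85 cells), Cbln1 (115 cells) and Dkk2 (180 cells), in which the genes did not move together. Mmp13 had 332 CPM in the Sfrp2, 56.0 CPM in the Cbln1 and 2.78 CPM in the Dkk2 cluster. Adamts16 had 20.4, 174 and 41.8 CPM in the same order, and Timp2 had 781, 1485 and 592 CPM. Mmp2 and its activator Mmp14 were both highest in the Cbln1 cluster, at 662 and 526 CPM, against 424 and 261 CPM in the Sfrp2 and 306 and 168 CPM in the Dkk2 cluster. Mmp9 had 192 CPM in the Sfrp2 cluster, 112 CPM there without the 1 cell with 39 UMIs, and 92.0 and 88.4 CPM in the Cbln1 and Dkk2 clusters.

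Since neutrophils and osteoclasts are known sources of Mmp9, their markers were read in the Igf1 cluster. The neutrophil markers summed to 158 CPM there, 14.1 to 58.9 CPM in the other mesenchymal clusters and 357800 CPM in neutrophils, and the macrophage markers to 10.3 CPM. The osteoclast list summed to 237 CPM there and 57.3 to 126 CPM in the other mesenchymal clusters, all from Acp5 and Ctsk, while Calcr, Ocstamp and Atp6v0d2 were at 0 UMIs. Their part in the Mmp9 level was not tested. Of the 14 dissociation genes 0 were at least 2-fold higher and 0 lower in the Igf1 cluster, against 15.3% and 9.98% of all genes tested.

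Mmp9 and Mmp13 also differed in how their UMIs lay over cells. Mmp9 was in 154 of 188 neutrophils, with up to 20 UMIs in a cell, and in 116 of 383 cells of the Igf1 cluster, where the 10 highest cells held 111 of 294 UMIs. Thinned to 2000 UMIs the share in the Igf1 cluster was 14.8% (11.3 to 19.0), and unthinned 30.3%. Mmp13 was in 46 of 431 macrophages, where 10 cells held 71 of 128 UMIs, and in 47 of 383 cells of the Igf1 cluster, where 10 cells held 137 of 212 UMIs. In the Lypd1 cluster 85 of the 89 Mmp13 UMIs were in 1 cell.

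**Figure D5:**
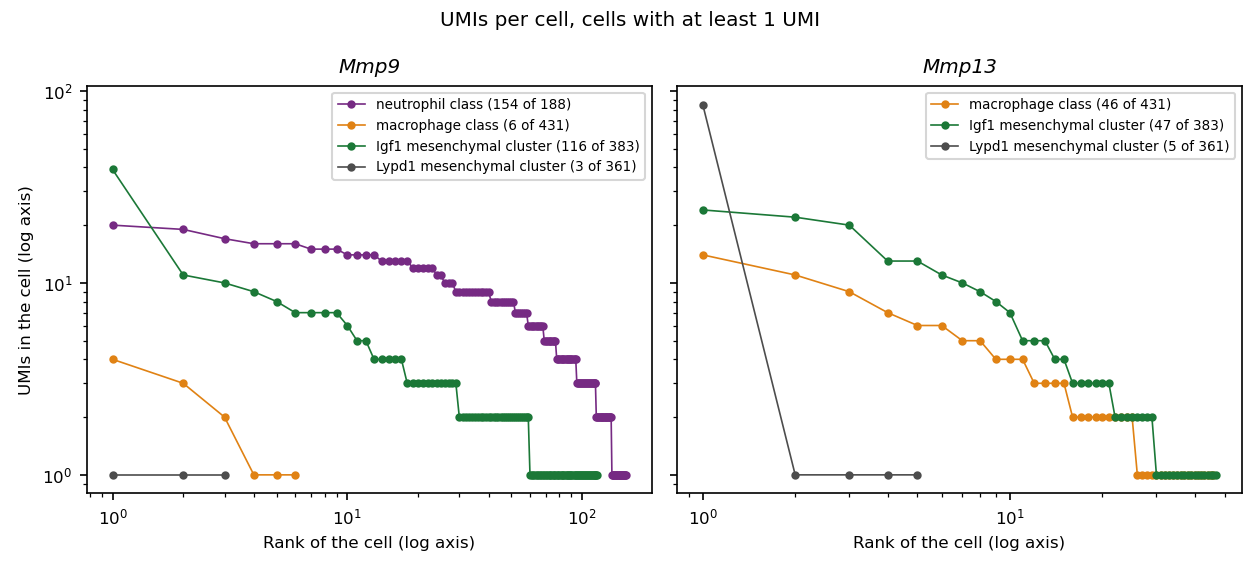
UMIs of Mmp9 (left) and Mmp13 (right) in each cell with at least 1 UMI, against the rank of the cell, both on log axes, for neutrophils, macrophages and the Igf1 and Lypd1 mesenchymal clusters. Legends give cells with a UMI of all cells. The Mmp9 line of neutrophils stays at or above 10 UMIs for the top 10 cells, that of the Igf1 cluster starts at 39 UMIs in 1 cell, and the Lypd1 line of Mmp13 starts at 85 UMIs and drops to 1.

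The cluster led by Dmp1 (163 cells) was odontoblast-like, with UMIs of 8 of 9 odontoblast markers and Mepe at 0. Those 8 were raised over the median of the mesenchymal clusters. Of the osteoblast list the Dmp1 cluster also raised Bglap, Bglap2 and Alpl, and not Ibsp, Runx2 and Spp1. It was high in Timp1, a soluble inhibitor, with 178 CPM against 31.4 CPM in the other mesenchymal cells (2.50, 2.30 to 2.70). Adam12 had 126 CPM in the Dmp1 cluster and 38.6 CPM in the others (1.71, 1.49 to 1.92), Mmp16 had 57.9 CPM in the Dmp1 cluster and 17.0 CPM in the others (1.77, 1.44 to 2.08), and Adamts14 was higher by 2.16. Timp3 had 2.00 CPM in the Dmp1 cluster and 48.8 CPM in the others (-4.61), and Mmp9 (-5.23), Mmp11 (-4.34), or stromelysin-3, and Adam22 (-3.76) were also low. In all 6 of 37 genes were at least 2-fold higher, against 7.67% of all genes tested, and 14 lower, against 21.6%. Thinned to 2000 UMIs 28.4% of Dmp1 cells held a Timp1 UMI, and unthinned 63.2%.

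A small mesenchymal cluster led by Dspp (23 cells) raised the odontoblast markers Dspp, Dmp1, Phex, Ifitm5, Nes, Sp7 and Col24a1. It also raised the osteoblast markers Bglap, Bglap2, Ibsp, Alpl and Spp1. This cluster shared high Mmp16 with the Dmp1 cluster, at 109 CPM against 20.2 CPM in the other mesenchymal cells (2.43, and 2.04 without the highest cell). Adamts14 was also higher (2.37, 0.03 to 4.04), from only 3 UMIs. Adamts6, which acts on fibrillin microfibrils, was higher in both, at 2.98 in the Dspp cluster and 1.35 in the Dmp1 cluster (0.88 with equal weight per cell). Adamts9 had 236 CPM in the Dspp cluster, against 57.0 CPM in the others (2.05), while it was lower in the Dmp1 cluster (-3.60). Adamts19 (-3.01), Adamts5 (-2.72) and Adam23 (-2.19, an interval that reached above 0) were lowest. Of 37 genes 7 were at least 2-fold higher, against 9.89% of all genes tested, and 9 lower, against 18.3%. With the most abundant genes left out of the totals the median of all genes tested moved to 0.24, against -0.04 with them, and 8 genes were higher and 8 lower.

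The remaining mesenchymal clusters had few genes at least 2-fold higher and many lower, each set against other mesenchymal cells that include the Igf1 cluster. The Fmod cluster had 4 higher, against 3.92% of all genes tested, and 17 lower, against 10.9%, with Adam23 (1.14), Mmp15 (1.12), Adam33 (1.09) and Adamts19 (1.09) higher and Mmp13 (-5.60, and -1.37 with doublet calls kept) and Adamts5 (-4.42) lower. Adam33 was at 0.96 with equal weight per cell and Mmp15 at 0.88 in cells with at least 1000 genes. The Lypd1 cluster had 2 higher, against 1.96%, and 17 lower, against 11.6%, of which Adamts20, a versicanase, was higher (1.15, and 0.88 with equal weight per cell) and Adamts17 lower (-3.81). The other gene counted as higher, Mmp13 (1.53), was at -2.93 (-4.82 to -1.56) without the 1 cell with 85 UMIs. The Plac8 cluster had 2 higher, Adamts18 (1.20) and Adam12 with 93.2 CPM there and 40.7 CPM in the others (1.19), against 1.91%, and 15 lower, against 15.4%, led by Mmp9 (-5.66) and Adamts9 (-4.91).

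The Slc20a2 cluster had 2 higher, Adam23 with 45.6 CPM there and 14.3 CPM in the others (1.67) and Adamts12 (1.54), against 4.52%, and 11 lower, against 13%. The Tac1 cluster had 2 higher, Adam33 (1.81) and Adamts20 (1.09, and 0.99 with equal weight per cell), against 2.42%, and 17 lower, against 15.4%, led by Adamts17 (-4.21) and Adamts9 (-4.02). The Ube2c cluster of cycling cells had 0 higher, against 5.92%, and 22 lower, against 11.7%, led by Mmp9 (-6.36), Mmp13 (-5.41) and Adamts9 (-3.47).

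In the epithelium, 18 genes had at least 30 UMIs. More of them were at least 2-fold higher in the clusters led by Grp and by Krt17 than in those led by Ambn and by Dspp. Not every gene followed, and Mmp23 had 9.28 CPM in the Dspp and 5.30 CPM in the Grp cluster. Of the ameloblast markers the Dspp cluster raised Amelx, Ambn and Enam over the median of all clusters, and not Slc13a5, Amtn and Odam. Adam10 varied little, with 106 CPM in the Ambn, 132 CPM in the Dspp, 102 CPM in the Grp and 127 CPM in the Krt17 cluster. Mmp14 had 27.7, 65.8, 68.9 and 104 CPM in the same order, and Timp2 had 21.1, 45.1, 90.5 and 103 CPM.

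Ambn encodes the enamel matrix protein ameloblastin. Its cluster held UMIs of 6 of 6 ameloblast markers. Amelx, Ambn, Enam and Slc13a5 were raised there over the median of all clusters, and Amtn and Odam were not. Of 18 genes 15 were at least 2-fold lower there than in the other epithelial cells, against 40.0% of all genes tested. The cluster had 0 higher, against 3.78%. With the most abundant genes left out of the totals the median of all genes tested moved to -0.094, against -0.79 with them, and 12 genes were lower and 1 higher. Adamts1 (-5.42), Adam9 (-5.05, -7.35 to -3.47), Mmp15 with 0 UMIs (at most -4.24) and Adamts17 (-3.68) were lowest. In the epithelial Dspp cluster 1 gene was higher, against 5.57% of all genes tested, and 6 were lower, against 15.9%. The 1 gene was Adam19, with 15.6 CPM there and 1.59 CPM, 0.815 CPM and 0 in the Ambn, Grp and Krt17 clusters (3.75, 2.68 to 4.99). Of the 6 lower genes, Adamts1 was at -1.12 (-2.51 to 0.03), and at 0.67 with equal weight per cell. There the same change of totals moved the median of all genes tested to -0.27, against -0.06, and the split to 1 higher and 7 lower.

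The Grp cluster raised the progenitor markers Sfrp5 and Grp but not Lrig1 and Bmi1. It also raised the cycling markers Mki67, Top2a, Ube2c, Cenpf and Birc5. The cluster had 10 of 18 genes at least 2-fold higher, against 29.2% of all genes tested, and 1 lower, against 8.82%. Adam9, a widely expressed sheddase, had 44.0 CPM there (3.76, 3.12 to 4.45), against 0.681 CPM in the Ambn cluster, 2.11 CPM in the Dspp cluster and 18.5 CPM in the Krt17 cluster. Mmp11 (2.46), Adamts1 (2.32, and 1.26 with equal weight per cell) and Adam15 (2.14) were next, and Adam19 was the 1 lower (-2.81). Timp3, 1 of the 10, had 14 of 62 UMIs in 1 cell, and its ratio of 1.18 was 0.85 without that cell. Adamts2, also 1 of the 10 but not of the 4 largest, was at 1.75, and at -0.13 with equal weight per cell. The Krt17 cluster had 9 of 18 higher, against 17.9%, and 1 lower, against 8.04%. It was led by Adamts9, with 55.5 CPM (3.71, 3.08 to 4.35), Mmp15 with 41.4 CPM (3.41, 2.71 to 4.10), Timp3 with 57.7 CPM (2.49) and Adamts1 (1.71, and 0.96 with equal weight per cell). With the most abundant genes left out of the totals 7 were higher in the Grp and 6 in the Krt17 cluster, and the median of all genes tested was 0.11 and 0.087, against 0.54 and 0.40 with them.

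Genes that work with these proteases, from lists that took part in the clustering, were read in the same comparisons. Over all genes tested 10.5% were at least 2-fold higher and 20% lower in epithelial than in mesenchymal cells. Of 7 measured partners of ADAM10 and ADAM17 3 were at least 2-fold higher in epithelial than in mesenchymal cells and 0 lower, namely the tetraspanins Tspan17 (2.10) and Tspan14 (43.1 CPM in epithelial cells, 17.2 CPM in mesenchymal cells, 1.32), which carry ADAM10, and Rhbdf2 (1.69), which carries ADAM17. Of 8 ADAM substrates 3 were higher, among them the ligands Areg (7.13) and Jag1 (2.40), and 2 lower. Of 13 ADAMTS substrates 10 were at least 2-fold lower in the epithelium and 0 higher, with Col1a1 at 47.8 CPM in epithelial cells and 8821 CPM in mesenchymal cells (-7.53), Col3a1 (-6.43) and fibronectin, Fn1 (-5.87).

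Of 10 proprotein convertases and other MMP regulators 2 were higher in epithelial cells, Cav1 (4.41) and Cd44 (3.55), and 3 lower, led by the convertase Pcsk5 (-5.83). For this and the next lists, 10.5% of all genes tested were higher and 20% lower. Of 12 cathepsins and cystatins 1 was higher, the inhibitor Cst3 (2.27), and 1 lower, the collagen-degrading Ctsk (-5.97). Of 7 ADAMTS-like genes 2 were higher, led by Papln (8.06), and 3 lower, and of 3 plasminogen system genes 0 were past 2-fold. Of the 14 dissociation genes 3 were higher, led by Atf3 (3.65), and 0 lower.

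In the Igf1 cluster 6 of 11 ADAMTS substrates were at least 2-fold higher than in the other mesenchymal cells and 3 lower, against 15.3% and 9.98% of all genes tested. Col3a1 was higher (6342 CPM in the Igf1 cluster, 169 CPM in the others, 5.23), and the proteoglycans Vcan (-2.76) and Dcn (-2.85) were lower. Of 9 regulators 4 were higher, among them the membrane inhibitor Reck (90.1 CPM in the Igf1 cluster, 36.2 CPM in the others, 1.32), and 0 lower. Both Plat and the protease inhibitor Serpine2 (295 CPM in the Igf1 cluster, 32.6 CPM in the others, 3.17) were higher of 3 plasminogen system genes.

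Of the 77 genes 21 had between 1 and 29 UMIs and were left out of the counts above. Timp4, the inhibitor known best from heart and muscle, had 8 UMIs, of which 6 were in endothelial cells (13.5 CPM, 4.94 to 29.3). Mmp25, a membrane-type MMP of leukocytes, had 16 UMIs, of which 13 were in neutrophils (18.6 CPM, 9.90 to 31.8), the class that also led for Mmp8, Mmp9 and Adam8. Mmp17, a membrane-type MMP held by a lipid anchor, had 29 UMIs, of which 7 were in epithelial cells (0.690 CPM) and 22 in mesenchymal cells (1.22 CPM). Adam5 had 24 UMIs and Adam4 22, and the remaining 16 genes, Mmp12 and those of the chromosome 9 stretch included, had 23 or fewer. The 15 genes with 0 UMIs were Adam6a, Adam6b, Adam7, Adam20, Adam24, Adam25, Adam26a, Adam26b, Adam29, Adam34, Adam39, Mmp1b, Mmp3, Mmp7 and Mmp24. A count of 0 in the 4538 cells does not show that a gene was absent.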

How the data were processed

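Droplet RNA-seq counts were taken from 1 deposited matrix of 31053 genes and 6794880 barcodes, whole-number UMI counts that the authors left unnormalized. Per the file headers it was written by a software at version 3.0.2, in a file format of version 2. The submitters' processing notes name the build mm10, R 3.4.1 and Seurat. The aligner is not given in the sources used here, nor is the annotation.

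Barcodes with at least 500 genes (5336) were kept, less 561 with over 20% of UMIs from 13 mitochondrial genes. Of the 4775 left, 122 with a doublet score (Scrublet method) over 0.15 were removed, since the automatic limit called only 1, and 115 others with over 5% haemoglobin UMIs outside the erythroid cluster. The 4538 cells had 746 to 127973 UMIs. They were scaled to 10000 UMIs and clustered (scanpy 1.11.5, leidenalg 0.10.2, scikit-image 0.26.0) on 2000 variable genes without the 77, 30 components and 15 neighbours, by Leiden at resolution 1.0 (0.5 within the mesenchyme), seed 0.

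UMIs were summed per class and given as CPM with exact Poisson intervals, ratios with exact conditional binomial intervals and shares with Clopper-Pearson intervals, at 95% (scipy 1.17.1, numpy 2.4.6, pandas 2.3.3, Python 3.11.15). Against a side at 0, a ratio was taken at a floor of 3 UMIs over that side. The ratio script was tested on simulated data. A gene counted as higher or lower when its ratio passed 2-fold, with 30 UMIs or more on both sides together.

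Genes named were the 25 with the most UMIs, all Timp genes, up to 4 per comparison in each direction and up to 3 per list of related genes. The genes, lists and tests were chosen with earlier results of these data known. The alternatives were other limits on cells and UMIs, other totals, equal weight per cell, other resolutions, thinning to 1000 UMIs, sums without their leading gene, and leaving out the highest cell. Figures used matplotlib 3.10.9. Of the genes of the symbol pattern 1 is not reported here.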

Additional observations from a re-analysis of the deposited data

Results flagged for a closer look

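Genes that had 0 UMIs in the kept cells had UMIs in barcodes outside them. Mmp3, stromelysin-1, had 34 UMIs there, of which 27 were in droplets of 1 to 20 UMIs (9.37 CPM) and 7 in barcodes with more UMIs but fewer than 500 genes. Mmp24, a membrane-type MMP, had 4 UMIs there. These barcodes entered no comparison.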

How the results depend on the processing

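No paired analysis was possible because the 2 samples are lanes of 1 matrix and no comparison is between samples. Of 1117 values of the 228 named ratios under the alternatives, 1047 moved by less than their interval, 66 moved more and 4 turned round. Adam8 in the H2-Eb1 cluster was at -1.09 with equal weight per cell, and Adam19 in B cells at -1.18 with at most 10% mitochondrial UMIs. Without the cell with the most UMIs of the gene, an alternative chosen after seeing the data, Adamts5 in endothelial cells was at -0.41 and Mmp13 in the Lypd1 cluster at -2.93. Besides those 4, of the ratios at least 2-fold higher 22 of 394 alternative values fell inside 2-fold and 28 more moved by over 1.5 times. Of those at least 2-fold lower, 7 of 540 fell inside 2-fold and 107 more moved by over 1.5 times. Ratios outside the named ones are not in these numbers, and some of them turned round too. With equal weight per cell, Adamts2 in the Grp cluster was at -0.13 and Adamts1 in the epithelial Dspp cluster at 0.67. Of 86 values of 19 counts, shares and family ratios, 66 stayed within their limits and 20 did not; where no other reason is given, the cause was not tested. The genes at least 2-fold higher in epithelial than in mesenchymal cells were 2, in place of 1, with totals without the genes above 1% and with equal weight per cell. With a minimum of 100 UMIs, under which fewer genes are counted, the 30 higher calls over the immune classes became 19. The epithelial clusters then had 8 higher and 8 lower in place of 20 and 23, and with a minimum of 10 UMIs they had 31 and 35. At a mesenchymal resolution of 1.0, which makes more clusters, 82 calls were higher and 196 lower, in place of 46 and 128. Thinned to 1000 UMIs, fewer per cell by construction, the shares were 25.1% for Mmp2 in mesenchymal cells, 22.1% for Timp2 in macrophages (39.1% at 2000, 67.8% unthinned), 70.2% for Mmp9 in neutrophils and 10.7% for Adam10 in epithelial cells. The epithelial to mesenchymal log2 ratios of family sums became -1.67 for MMPs without Mmp2, -1.38 for ADAMs without Adam10 and -2.47 for ADAMTS genes without Adamts2. With totals without the genes above 1% they were -2.48, 0.14, -2.43 and, for TIMPs, -1.91. Small classes limit what can be seen: 1 UMI is 6.15 CPM in cytotoxic lymphocytes.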

Other observations

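Barcodes left out of the comparisons held Mmp9 as well. Those called doublets had 139 Mmp9 UMIs (108 CPM), of which 52 were in 1 barcode. Those with over 20% mitochondrial UMIs had 136 (111 CPM), of which 54 were in 1 barcode, and those removed for haemoglobin had 41. The kept neutrophils stood at 1315 CPM and the Igf1 mesenchymal cluster at 108 CPM.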
